A study of Mus musculus with 3 samples.

Results

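To describe the circadian clock in livers that expressed forms of YAP, the 10 genes Arntl, Npas2, Clock, Per1, Per2, Per3, Nr1d1, Nr1d2, Dbp and Usp2 were followed over the arrays of the series. They were chosen by name as core clock and clock output genes, and every non-control probe whose RefSeq accession belonged to 1 of them was taken. This gave 11 of 55681 probes, with 2 probes for Dbp and 1 for each of the others. Of the 10 genes, 9 were measured on all 3 arrays, against 13626 genes measured over the whole array. Npas2, which encodes a paralogue of CLOCK that also pairs with BMAL1, was not well above background on any array and enters no comparison.

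The series holds 1 array each for YAP (WT), YAP (1SA) and YAP (2SA). Each array was hybridised with RNA of whole liver from C57BL/6J mice, taken 2 days after hydrodynamic tail vein injection (HTVi) of a plasmid for Myc-tagged human YAP, so every array came from liver with injected human YAP and none from uninjected liver. YAP is the transcriptional coactivator that the Hippo pathway restrains. The mutants 1SA and 2SA are active forms in which serines phosphorylated in that pathway are replaced by alanine. In the pLIVE vector the transgene is driven by a mouse AFP enhancer and a minimal albumin promoter, which are active in hepatocytes, and HTVi reaches only part of the hepatocytes, so each value averages cells with and without the transgene together with other liver cells. The methods describe mainly males at 8 weeks of age, and no source used here says whether an array held 1 animal or a pool. The title of the YAP (WT) array carries the number 2. The hour of the day at which the livers were taken is not given, so hour of collection and group cannot be told apart.

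There was no replicate, and no test between groups was possible. All values below are levels or log2 differences after the intensity of each spot was divided by its array's 75th percentile, which was 290.8 on YAP (WT), 275.7 on YAP (1SA) and 319.5 on YAP (2SA). A level of 1 therefore means the 75th percentile of that array. The only repeat measurement was that of probes spotted several times on an array, and each clock probe was read from 1 spot. For each difference a spot limit was taken as 1.96 times the SD of a difference between single spots of like signal. A difference beyond the limit exceeded the error between spots and was not compared with any spread between animals. Because YAP (WT) is on 1 side of both mutant comparisons, those comparisons are not independent of each other.

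The mammalian clock is a feedback loop of transcription. BMAL1, the product of Arntl, pairs with CLOCK or NPAS2 and activates the Per and Cry genes and the REV-ERB genes Nr1d1 and Nr1d2 through E-boxes. PER and CRY proteins repress that activation, REV-ERB receptors repress Arntl, and outputs such as Dbp carry the rhythm to liver metabolism. In liver, Arntl transcript normally peaks at a phase far from that of Nr1d1, Dbp and the Per genes.

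The promoter letters that join these genes were read from RefSeq sequence of mouse build GRCm38.p6, in windows of 300 bases from 250 before to 50 after a start, on both strands. The starts are those of the RefSeq promoter table, which gives some genes several, and the starts used below for Per1 and Arntl lie inside the annotated span of the gene and not at its first base. The window of Per2 was not among the promoters used here, so 9 members had one. The E-box letters CACGTG, which BMAL1 with CLOCK binds, stood in 7.15% of 32851 promoters. Among the members only Per1 held them, 166 bases before 1 of its starts. Ciart, a repressor of BMAL1 and CLOCK that is discussed with the other clock genes, held them at 3 places, 116, 58 and 44 bases before its start. Cry1, Bhlhe41, Cipc and Tef, of the same list, also held them. The D-box letters TTATGTAA, which DBP and its relatives bind, stood in 0.938% of promoters. Per3 held them at 2 places, 205 and 158 bases before its start. The letters AGGTCA, the half-site of REV-ERB and ROR receptors, stood in 16.3% of promoters, and Arntl, Clock, Per1 and Nr1d2 held them. In Arntl they began 32 bases after 1 of its starts. The windows of Nr1d1, Dbp, Usp2 and Npas2 held none of these exact letters, which says only that they are not in this window. The 250 bases before these starts of Per1 (chr11:69098699-69098948, plus strand), Ciart (chr3:95882229-95882478, minus strand) and Per3 (chr4:151044666-151044915, minus strand), and 24 bases after that of Arntl (chr7:113207533-113207556, plus strand), are shown because they hold these letters in genes whose levels are compared below. Capitals mark the E-box in Per1 and Ciart, the D-box in Per3 and the half-site in Arntl.
Per1: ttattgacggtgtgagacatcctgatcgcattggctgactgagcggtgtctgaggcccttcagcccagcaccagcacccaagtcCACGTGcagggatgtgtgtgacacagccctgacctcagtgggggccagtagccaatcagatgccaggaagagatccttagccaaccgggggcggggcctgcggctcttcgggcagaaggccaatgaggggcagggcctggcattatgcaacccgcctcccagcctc
Ciart: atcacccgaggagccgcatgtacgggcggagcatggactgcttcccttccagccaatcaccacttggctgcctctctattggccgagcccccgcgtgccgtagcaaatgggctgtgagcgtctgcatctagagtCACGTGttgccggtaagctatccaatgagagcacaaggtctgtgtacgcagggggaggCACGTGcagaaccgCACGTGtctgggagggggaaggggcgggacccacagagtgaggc
Per3: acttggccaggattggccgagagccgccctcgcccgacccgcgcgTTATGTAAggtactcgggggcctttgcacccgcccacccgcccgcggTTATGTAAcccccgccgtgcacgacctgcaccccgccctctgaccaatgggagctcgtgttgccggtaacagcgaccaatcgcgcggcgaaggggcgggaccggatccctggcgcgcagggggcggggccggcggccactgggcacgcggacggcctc
Arntl: gcagaaagtAGGTCAgggacggag

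In the positive limb, Arntl stood apart on the YAP (2SA) array and Clock did not. The normalised intensity of Arntl, which encodes BMAL1, was 0.162 on YAP (WT), 0.133 on YAP (1SA) and 0.371 on YAP (2SA). The YAP (2SA) value was the highest and the other 2 lay close together. Arntl was 2.30-fold higher in YAP (2SA) than in YAP (WT) (log2 difference 1.20, spot limit 0.40) and 2.78-fold higher than in YAP (1SA) (1.48, limit 0.47), whereas YAP (1SA) differed from YAP (WT) by -0.28, inside the limit of 0.54. Of 13626 genes, 87 exceeded Arntl in the same direction in YAP (2SA) against YAP (WT), and 2.05% of genes of like signal differed by as much. In RNA of whole liver, here and below, fewer cells of a type and less RNA per cell cannot be told apart. Clock, the partner of BMAL1, was at 0.668 on YAP (WT), 0.636 on YAP (1SA) and 0.749 on YAP (2SA). Its 3 levels had the same order as those of Arntl, but no difference passed its spot limit. The difference of YAP (2SA) from YAP (WT) was 0.16 with a limit of 0.24, and that from YAP (1SA) was 0.24 with a limit that rounds to the same value. Npas2 had deposited intensities of 2.55, 2.08 and 4.24 on YAP (WT), YAP (1SA) and YAP (2SA), none of them well above background.

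**Figure D1:**
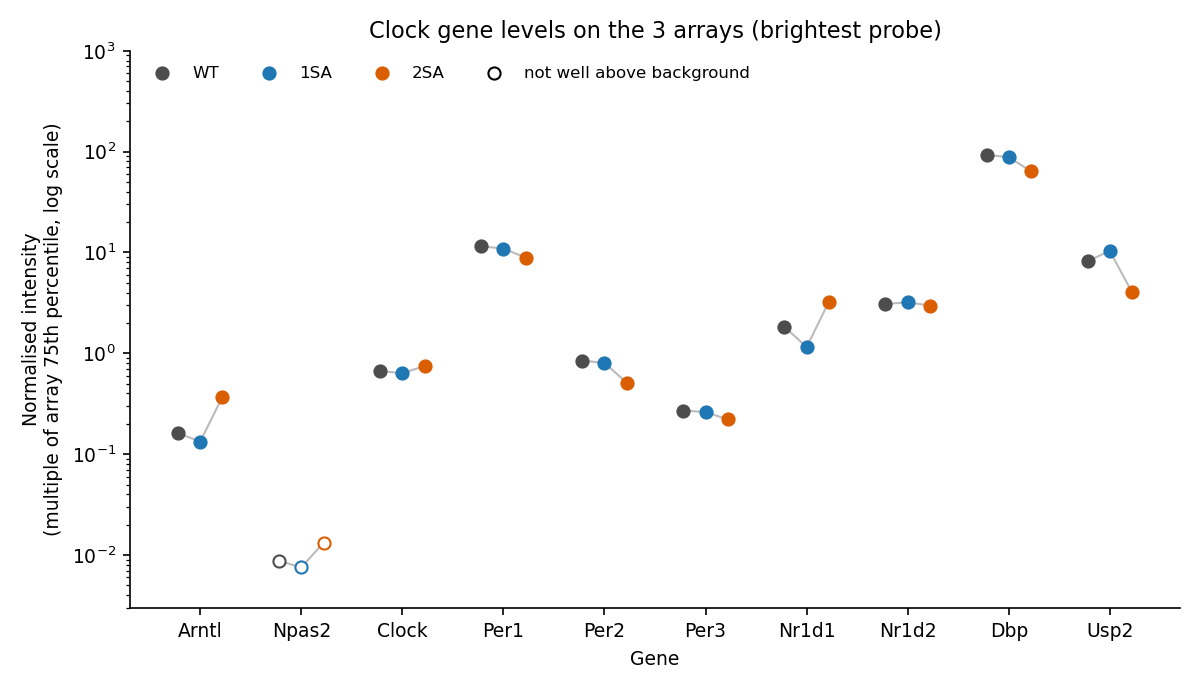
Normalised intensity (multiples of the array's 75th percentile, log scale) of the 10 clock genes on the YAP (WT), YAP (1SA) and YAP (2SA) arrays, 1 point per array from the brightest probe. Arntl and Nr1d1 were highest on YAP (2SA) at 0.371 and 3.24, Usp2 was lowest there at 4.04, and the hollow points of Npas2 were not well above background; levels of different genes come from different probes and are not comparable.

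The 3 period genes, whose proteins repress BMAL1 with CLOCK, were all lowest on YAP (2SA), and differed little between YAP (WT) and YAP (1SA). Per1 was at 11.5, 10.9 and 8.90 on YAP (WT), YAP (1SA) and YAP (2SA). It was lower in YAP (2SA) by a log2 difference of -0.38 from YAP (WT) (limit 0.17) and -0.30 from YAP (1SA) (limit 0.16). Among genes of like signal, 7.08% differed by as much in the first comparison and 21.0% in the second. With normexp, another background correction, Per1 was -0.16 in YAP (2SA) from YAP (1SA) and -0.19 in YAP (1SA) from YAP (WT). The limit of 0.16 in each of these comparisons belongs to the values as reported and does not measure the spot error of normexp values. Per2 had the widest spread of the period genes, with levels of 0.847, 0.804 and 0.511. Its YAP (2SA) level was 1.66-fold below YAP (WT) (-0.73, limit 0.25) and 1.57-fold below YAP (1SA) (-0.65, limit 0.26). As large a difference was seen in 4.02% of genes of like signal for the first and 10.7% for the second, so the distance of Per2 from YAP (1SA) was shared by many genes of that brightness. Per3 was at 0.271, 0.262 and 0.221, and none of its differences passed the limit (-0.30 from YAP (WT), limit 0.37). Per3, whose window holds 2 D-boxes, thus had levels that the spot error did not separate. Between YAP (1SA) and YAP (WT) the period genes differed by -0.08, -0.07 and -0.05 as reported, all inside their limits.

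The genes of the REV-ERB receptors, which are nuclear receptors that repress Arntl, did not move together. Nr1d1 was at 1.84 on YAP (WT), 1.15 on YAP (1SA) and 3.24 on YAP (2SA), so that YAP (WT) lay between the mutants and each gap passed the spot limit. It was 1.60-fold lower in YAP (1SA) than in YAP (WT) (-0.67, limit 0.21), 1.76-fold higher in YAP (2SA) (0.82, limit 0.19) and 2.81-fold higher in YAP (2SA) than in YAP (1SA) (1.49, limit 0.20). Only 1.19% of genes of like signal differed as much between the mutants, and 111 of 13626 genes were further in that direction. Nr1d2 was at 3.09, 3.20 and 2.98 on the same arrays, with differences of 0.05 and -0.05 from YAP (WT), both inside the limit of 0.19. Thus the highest Arntl and the highest Nr1d1 were found on the same array, YAP (2SA), while Nr1d2 differed by less than the spot error.

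The clock outputs were both lowest on YAP (2SA). Dbp, a PAR bZIP transcription factor with a strong rhythm in liver, was at 92.8, 88.2 and 63.9 on YAP (WT), YAP (1SA) and YAP (2SA) by its brighter probe. The YAP (2SA) level was lower than YAP (WT) by -0.54 (limit 0.14) and lower than YAP (1SA) by -0.46 (limit 0.14), values that were -0.29 and -0.24 with normexp. As reported, 2.56% of genes of like signal differed by as much in the first comparison and 9.02% in the second. The other Dbp probe gave 86.7, 84.5 and 70.8, the same order with smaller differences of -0.29 and -0.26. Both probes placed YAP (1SA) inside the spot limit of YAP (WT). With quantile normalisation the brighter one was at -0.16, beside a limit of 0.15 that belongs to the value as reported. Usp2, a deubiquitinase gene that is rhythmic in liver, was at 8.22 on YAP (WT), 10.3 on YAP (1SA) and 4.04 on YAP (2SA). All 3 levels were separated by more than the spot limit, in the order opposite to that of Nr1d1. It was 2.04-fold lower in YAP (2SA) than in YAP (WT) (-1.03, limit 0.18), 2.56-fold lower than in YAP (1SA) (-1.36, limit 0.17) and 1.26-fold higher in YAP (1SA) than in YAP (WT) (0.33, limit 0.17). As large a difference between YAP (2SA) and YAP (WT) was seen in 0.753% of genes of like signal, and 69 genes were further below. Between YAP (1SA) and YAP (WT) the share was 10.4%.

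**Figure D2:**
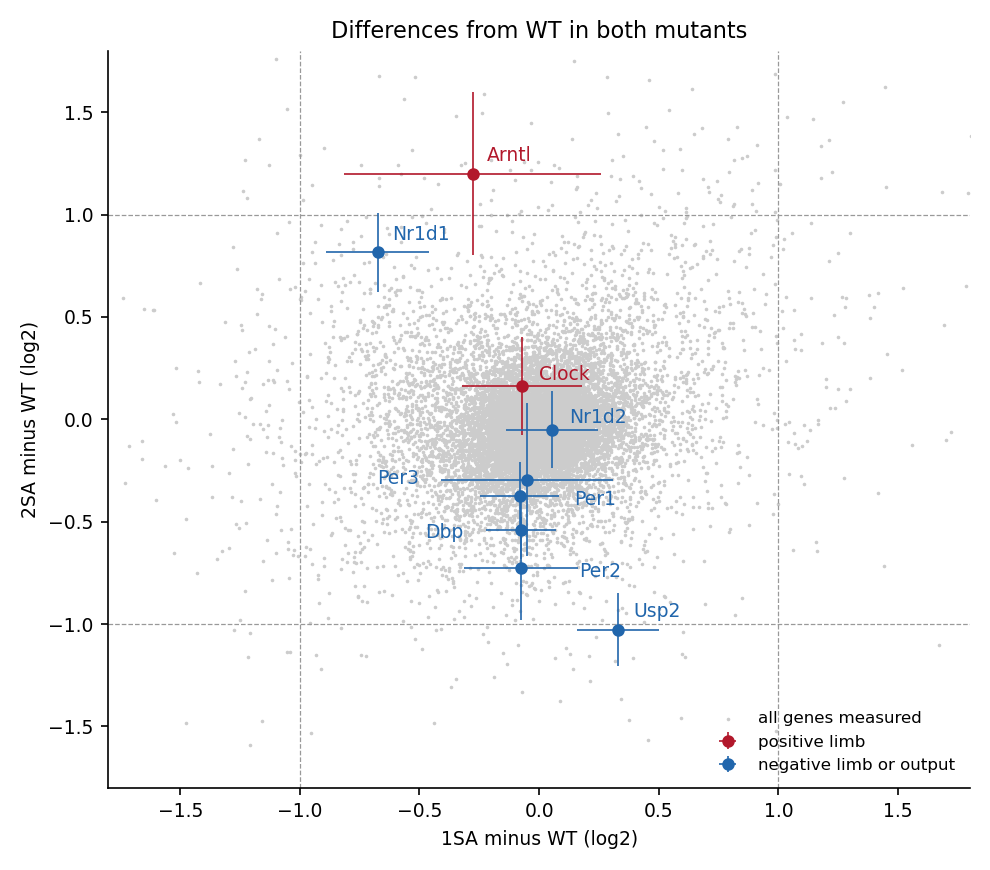
Log2 difference of YAP (1SA) from YAP (WT) (horizontal) against that of YAP (2SA) from YAP (WT) (vertical), with the positive limb in red, the negative limb and outputs in blue, bars for the spot limit and all 13626 measured genes in grey (those beyond 1.8 are not drawn); dashed lines mark 2-fold. Arntl (1.20) lay above the upper horizontal line and Usp2 (-1.03) below the lower one, while no clock gene reached 2-fold between YAP (1SA) and YAP (WT); both axes share the YAP (WT) array.

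By a 2-fold threshold, no clock gene of the 9 differed between YAP (1SA) and YAP (WT) in either direction, where 0.727% of all genes were higher and 1.14% lower. In YAP (2SA) against YAP (WT), Arntl was higher and Usp2 lower, 1 gene each of 9, where 1.12% of all genes were higher and 0.543% lower. In YAP (2SA) against YAP (1SA), Arntl and Nr1d1 were higher, where 2.47% of all genes were, and Usp2 was lower, where 1.12% were. The median difference of the 9 genes was -0.07, -0.30 and -0.25 in these comparisons, beside -0.03 or nearer to 0 over all genes. Below 0 lay 7, 6 and 6 of the 9, against 50.3%, 56.4% and 54.4% of all genes.

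The limbs were compared by the mean difference of Arntl and Clock minus that of the 7 negative limb and output genes, a quantity in which the scaling between arrays cancels. It was 1.00 on the log2 scale in YAP (2SA) against YAP (WT) (spot limit 0.25), with a mean of 0.68 for the positive limb and -0.31 for the others. It was 1.09 in YAP (2SA) against YAP (1SA) (limit 0.28), with means of 0.86 and -0.23. In YAP (1SA) against YAP (WT) it was -0.09, inside the limit of 0.31. The positive limb thus stood above the negative limb and outputs on the YAP (2SA) array relative to either other array. Only 2 genes made up the positive limb, and the contrast rested mainly on Arntl: without it the contrast was 0.48 in YAP (2SA) against YAP (WT) and 0.47 against YAP (1SA), and without Clock it was 1.51 and 1.71. Nr1d1 lowered the contrast, which was 1.18 and 1.38 without it. With normexp background correction the contrast was 0.65 and 0.61, and Arntl was then 0.66 and 0.72 higher, below 2-fold.

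Other genes of the clock were less divided. Of 19 listed, 17 were measured, Arntl2 and Rorb not being well above background. Their median differences were 0.10 in YAP (1SA) against YAP (WT), -0.15 in YAP (2SA) against YAP (WT) and -0.16 in YAP (2SA) against YAP (1SA), and 6 of 17 were above 0 and 11 below in YAP (2SA) against YAP (WT). The only one past 2-fold in any comparison was Ciart, whose promoter with 3 E-boxes is shown above. It was at 1.42, 1.60 and 0.794 on YAP (WT), YAP (1SA) and YAP (2SA), which is -0.84 from YAP (WT) (limit 0.22) and -1.01 from YAP (1SA) (limit 0.21). Cry1, a repressor that acts with PER, was lowest on YAP (2SA) as well, at 0.0743, 0.0887 and 0.0458, but its signal was dim and the difference of -0.70 from YAP (WT) lay inside a limit of 0.80, while that of -0.95 from YAP (1SA) passed a limit of 0.73. Timeless, a replication fork protein related to a fly clock gene, was highest on YAP (2SA), at 1.74, by 0.67 over YAP (WT) and 0.55 over YAP (1SA). In YAP (2SA) against YAP (WT), the repressor genes Cry2 and Bhlhe40 differed by -0.01 and 0.19, the PAR bZIP genes Tef and Hlf by -0.18 and -0.32, and the dim repressor gene Bhlhe41 by -0.59, inside its limit of 0.79. Nfil3, which represses D-box genes, was higher in both mutants by 0.53 and 0.57.

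Genes with the E-box letters in their promoter window had a median close to that of all genes in YAP (2SA) against YAP (WT). Over 1222 measured genes that held them, the median difference was -0.04 in YAP (2SA) against YAP (WT), beside -0.03 over the 10869 measured genes with a promoter in the table. Per1 (-0.38), Ciart (-0.84) and Cry1 (-0.70) were below both medians in that comparison. Below 0 there lay 59.2% of the genes with the E-box letters, against 56.6%. The 89 measured genes with the D-box letters had a median of 0.09 in YAP (1SA) against YAP (WT), beside 0.0002 over genes with a promoter. Their medians were -0.04 in YAP (2SA) against YAP (WT), and -0.11 against YAP (1SA), beside -0.03 in each. These class differences were not tested.

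Rhythmic genes of liver metabolism held the widest differences among the clock-related lists. All 14 were measured, with medians of -0.03, -0.21 and -0.40 in YAP (1SA) against YAP (WT), YAP (2SA) against YAP (WT) and YAP (2SA) against YAP (1SA). Rgs16, a regulator of G protein signalling, was at 2.98, 1.75 and 17.6 on YAP (WT), YAP (1SA) and YAP (2SA), so it was the highest on YAP (2SA) by 2.56 over YAP (WT) and lower than YAP (WT) in YAP (1SA) by -0.77. Noct, a gene of the RNA-modifying protein nocturnin, ran the other way at 5.93, 7.41 and 1.47, or -2.01 in YAP (2SA) against YAP (WT) and 0.32 in YAP (1SA). Cyp7a1, the rate-limiting enzyme of bile acid synthesis, was at 11.4, 9.87 and 3.25, lower in YAP (2SA) by -1.82. Rgs16 thus had the array order of Nr1d1, and Noct that of Usp2.

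**Figure D3:**
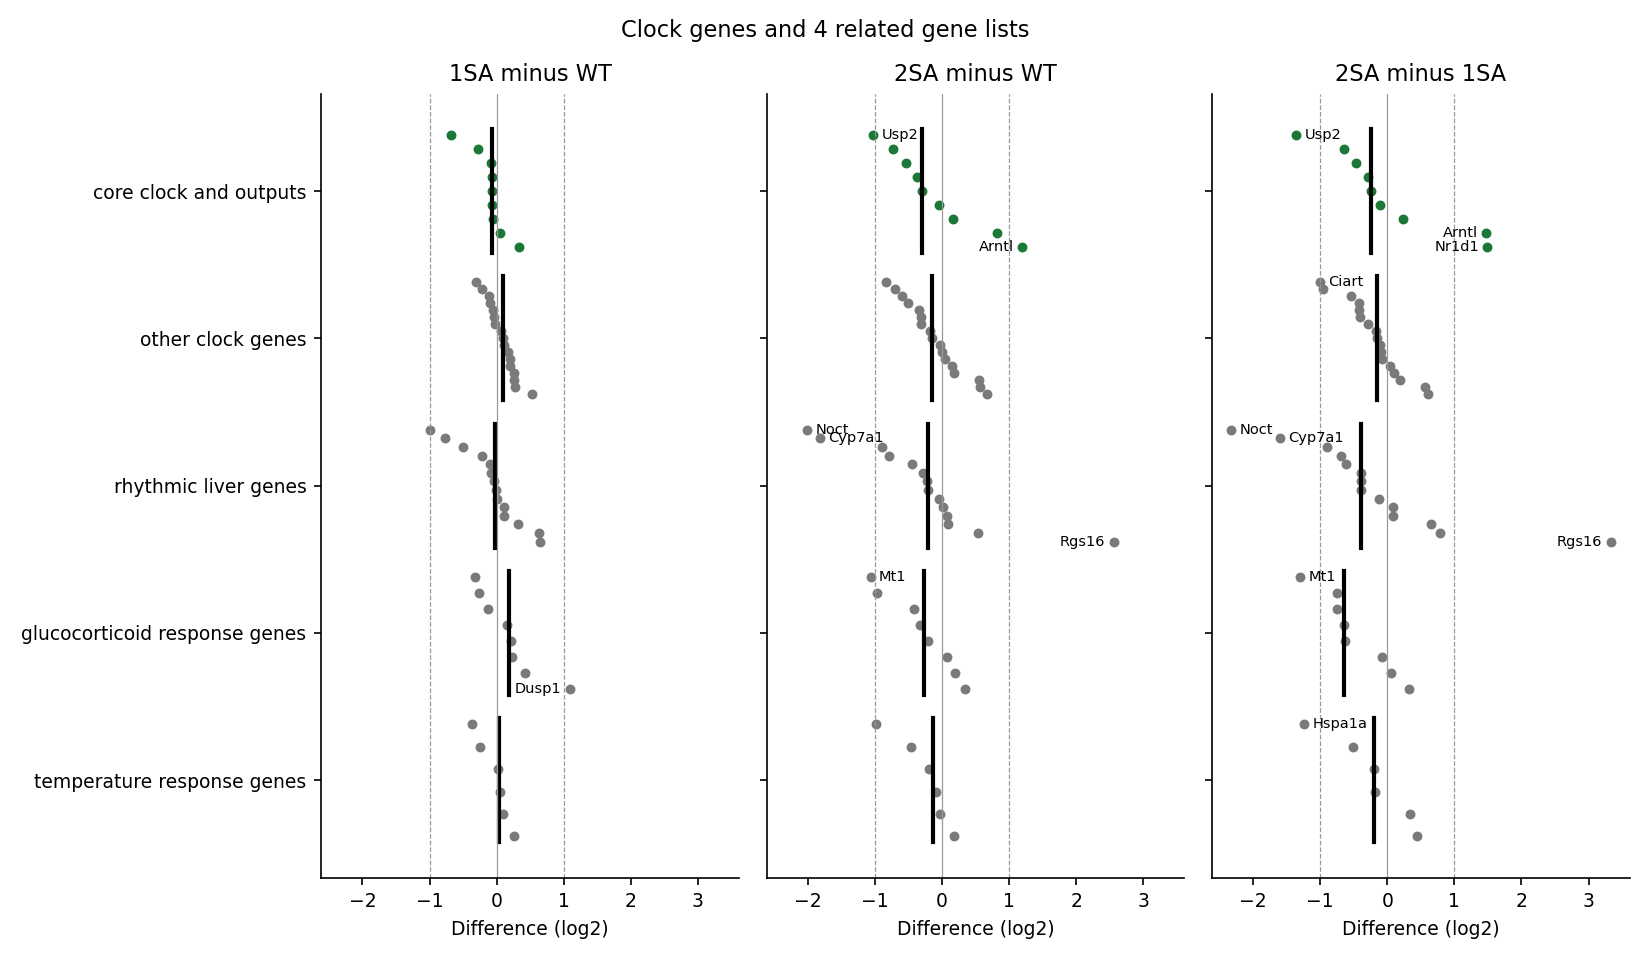
Log2 differences (horizontal) of the measured genes of the core clock and outputs (green) and 4 related lists (grey) in the 3 comparisons of arrays, 1 point per gene sorted within a list, with the list median as a black bar and dashed lines at 2-fold, past which genes are named. Rgs16, at 2.56 and 3.33, and Noct, at -2.01 and -2.33, lay furthest out in YAP (2SA) against YAP (WT) and against YAP (1SA).

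Glucocorticoids and body temperature are known to set the phase of the liver clock, and some of their response genes also differed on the YAP (2SA) array. The 8 glucocorticoid response genes had medians of 0.19 in YAP (1SA) against YAP (WT), -0.27 in YAP (2SA) against YAP (WT) and -0.64 in YAP (2SA) against YAP (1SA). The metallothionein Mt1 was at 322.6, 380.0 and 154.5 on YAP (WT), YAP (1SA) and YAP (2SA) (-1.06 in YAP (2SA) from YAP (WT)), and Dusp1, a phosphatase gene, was 1.09 higher in YAP (1SA) than in YAP (WT). The other metallothionein, Mt2, was -0.97 in YAP (2SA) from YAP (WT). In that comparison 5 of the 8 genes were below 0 and 3 above, Dusp1 among the latter at 0.34 (limit 0.19). Of 7 temperature response genes 6 were measured, with medians of 0.03, -0.13 and -0.19, and the heat shock gene Hspa1a was at 0.338, 0.406 and 0.171 (-1.24 in YAP (2SA) from YAP (1SA)). In the same comparison the co-chaperone gene Dnajb1 was -0.52 and the cold-inducible gene Cirbp 0.44. Their part in the differences of the clock genes was not tested.

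Cell markers also differed between the arrays. The summed level of the 5 hepatocyte markers measured of 6 was 2862 on YAP (WT), 3021 on YAP (1SA) and 2564 on YAP (2SA), with median differences of 0.09, -0.09 and -0.18 in YAP (1SA) against YAP (WT), YAP (2SA) against YAP (WT) and YAP (2SA) against YAP (1SA). All 5 were well above background on every array. In the last of these comparisons Alb was -0.39, Apoa1 0.23 and Cps1 -0.18. The summed level of all 6 Kupffer cell markers was 199.2, 142.9 and 98.5, and that list had medians of -0.39, -0.94 and -0.52 in the same order. Its members did not go 1 way in YAP (1SA) against YAP (WT), where Clec4f was 0.45 and Vsig4 0.07, and Marco was -1.21, Adgre1 -0.49, Cd5l -0.42 and Timd4 -0.36. In YAP (2SA) against YAP (WT) all 6 were below 0 by their brightest probes, from -1.59 for Marco and -1.56 for Clec4f to -0.16 for Adgre1. The other Adgre1 probe was 0.14 in that comparison, and both Adgre1 values lay inside their limits of 0.19. A summed level is carried by the brightest probes of its list. The 4 sinusoidal endothelial markers summed to 46.9, 49.7 and 35.6, with a median of -0.16 in YAP (2SA) against YAP (WT), where Clec4g was -0.59, Stab2 -0.21 and Lyve1 0.37. The 4 bile duct markers summed to 0.990, 0.639 and 1.02, with a median of 0.01 in that comparison and of -0.78 in YAP (1SA) against YAP (WT). In the latter Krt19 was -0.82 (limit 0.33) and the dim Epcam -0.90 (limit 0.80). Krt7 at -0.73 and Sox9 at -0.29 lay inside their limits of 0.78 and 0.35. The 2 stellate cell markers measured of 3 summed to 3.94, 5.05 and 2.43, and in YAP (2SA) against YAP (1SA) Colec11 was -1.07 and Lrat -0.87. The 5 blood cell markers measured of 6 summed to 60.3, 96.8 and 73.7, with medians of 0.23, 0.13 and -0.26 in the order used above. In YAP (1SA) against YAP (WT) Hba-a1 was 0.90 and Alas2 0.43. S100a8 was 0.23 in that comparison, inside its limit of 0.28. Cd3e at 0.10 and S100a9 at -0.11 were also inside their limits, of 0.19 and 0.21. The part of these cells in the clock gene differences was not tested.

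Genes with a like pattern over the 3 arrays were sought by the distance between their 2 differences from YAP (WT), which describes 3 arrays and no more. Measured genes with only provisional symbols, such as those ending in Rik, were left out of this search and of its counts. Nearest to Arntl were Lrrc1, Itga11, Plau, Pdlim4 and Inhbb, and 14 genes lay within 0.25 of it. Nearest to Nr1d1 were Padi2, Alox5ap, Klra8, S100a11 and Cyp26b1, with 49 genes within 0.25. Nearest to Dbp were Klhl42, Ppan, Fcna, Tnfsf10 and Pde12, with 659 genes as near. Most genes lay near 0 in both differences, so a count at a fixed distance follows the size of a gene's differences. The counts are therefore not read as particular to a pattern.

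**Figure D4:**
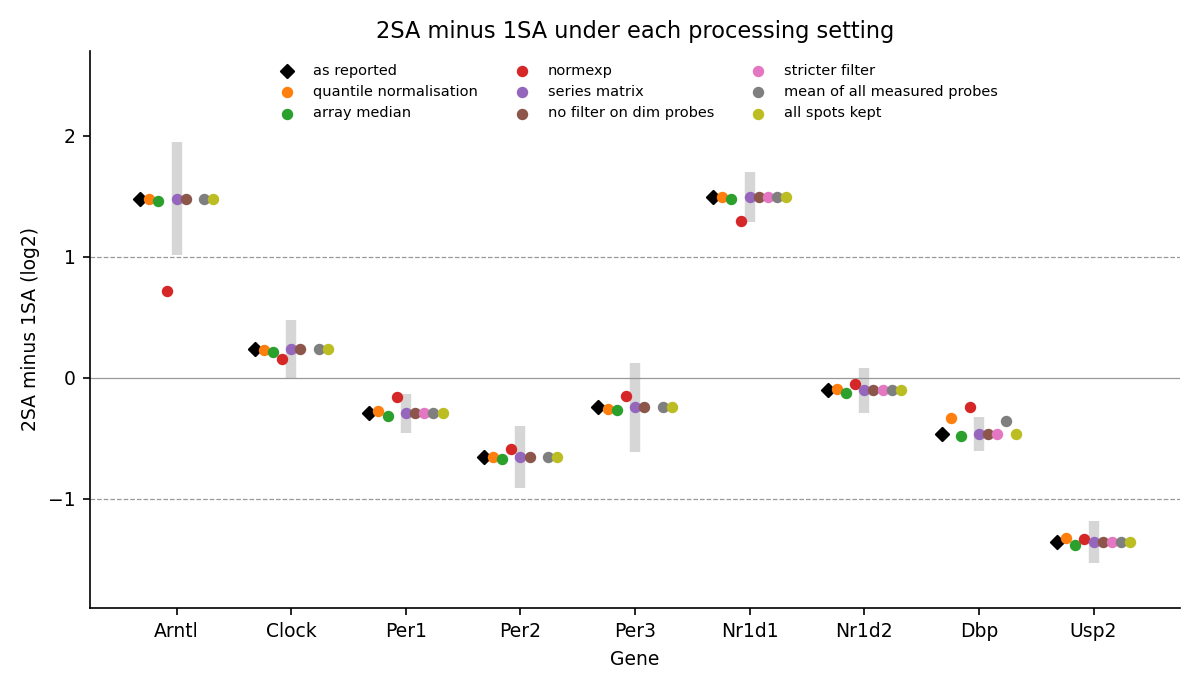
Log2 difference of YAP (2SA) from YAP (1SA) for the 9 measured clock genes (horizontal) under each processing setting, with the value as reported as a black diamond, the spot limit around it as a grey bar and dashed lines at 2-fold. Usp2 and Nr1d1 stayed past 2-fold under every setting drawn, of which only quantile normalisation, the array median and normexp changed their values. Arntl fell to 0.72 with normexp. No stricter filter point is drawn for the 4 genes that it removed.

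Where clock genes had several measured probes the probes could disagree. Over 9 such genes of these lists, Dbp among them, the median gap between probes was 0.13, 0.16 and 0.21 on the log2 scale in YAP (1SA) against YAP (WT), YAP (2SA) against YAP (WT) and YAP (2SA) against YAP (1SA), with largest gaps of 0.47, 0.48 and 0.95, the last in Btrc, a gene of the ubiquitin ligase that marks PER proteins. Both Btrc probes were dim, at deposited intensities of 39.5 to 66.2, so its gaps are no measure for brighter genes. In YAP (2SA) against YAP (WT), the differences of Clock, Per1, Per3 and Nr1d2 were smaller than the largest gap among these genes, which was also that of Btrc. Those of Arntl, Per2, Nr1d1 and Usp2 were larger. Dbp was larger by its brighter probe (-0.54) but smaller by its other probe (-0.29) and by the mean of its probes (-0.42). Rbm3, of the temperature list, had wider gaps between its 3 probes, 0.68 in that comparison and 1.48 in YAP (2SA) against YAP (1SA). Of the clock gene differences only that of Nr1d1 exceeded the latter gap. It came from the dimmest Rbm3 probe, at deposited intensities of 29.2, 35.7 and 19.5, which was -1.08 in YAP (2SA) against YAP (1SA) (limit 0.66). The 2 brighter Rbm3 probes were 0.34 and 0.40 there, so the gap is no measure for bright genes.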

How the data were processed

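Total RNA of mouse liver was labelled with Cy3 and hybridised to 3 Agilent 1-colour mouse arrays on 1 slide. The authors extracted the deposited intensity with Feature Extraction 10.10.1.1, after background subtraction and without scaling between arrays. Of 59305 non-control spots per array, 181 on YAP (WT), 148 on YAP (1SA) and 182 on YAP (2SA) were marked as outliers and left out, and none was saturated. Repeated spots of a probe were averaged on the log2 scale, and each array was scaled to its 75th percentile. A probe was measured where at least 50% of its spots were well above background, which held for 28972, 29705 and 30784 probes on YAP (WT), YAP (1SA) and YAP (2SA). Accessions were matched to a RefSeq gene table of GRCm38.p6, which named 26762 of 55681 probes. A gene was read from its brightest probe measured on all 3 arrays. Genes of like signal lay within 1 log2 unit. The median SD of repeated spots was 0.07 on each array, and the number of arrays limits the precision.

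The members and lists were chosen with earlier results of these data known. Named are all members, the genes of each other list at least 2-fold different in any comparison or, where these were under 3, those with the largest differences up to 3, and the 5 genes nearest in pattern to Arntl, Nr1d1 and Dbp; the other genes named were chosen after their values were seen. Alternatives were quantile normalisation, the array median, normexp with an offset of 50, the authors' series matrix (the same intensity times 1 constant per array of 2.81 to 3.08, of unstated source), no filter or a stricter filter (probes above the median signal) on dim probes, all spots kept, the mean of all probes, a 3-fold threshold and, added after seeing the data, leaving out each member from the limb contrast. For normexp the foreground was the median brightness of a spot, in place of the planned mean, and the background its local median. The scripts were tested on simulated data. Python 3.11.15, pandas 2.3.3, numpy 2.4.6, scipy 1.17.1, matplotlib 3.10.9 and R 4.3.3 with limma 3.58.1 were used.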

Additional observations from a re-analysis of the deposited data

Results flagged for a closer look

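In 7 genes of the clock, rhythmic liver, response and marker lists, YAP (1SA) and YAP (2SA) lay on opposite sides of YAP (WT). Each lay beyond the spot limit from YAP (WT), and the mutants differed at least 2-fold from each other. The share of all measured genes that met this rule is not given, so the count is not read as particular to these lists. Nr1d1 was -0.67 in YAP (1SA) and 0.82 in YAP (2SA) from YAP (WT), a difference of 1.49 between the mutants on the log2 scale. Usp2 was 0.33 and -1.03, a difference of -1.36. Noct was 0.32 and -2.01, a difference of -2.33, and Rgs16 was -0.77 and 2.56, a difference of 3.33. The metallothionein gene Mt1 was 0.24 and -1.06, a difference of -1.30. The Kupffer cell marker Clec4f was 0.45 and -1.56, a difference of -2.02, and the stellate cell marker Colec11 was 0.37 and -0.71, a difference of -1.07. These differences between the mutants were not tested, because each group held 1 array, and both directions of a gene are read against the same YAP (WT) array.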

How the results depend on the processing

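No paired analysis was possible because there was only 1 array to a group, which also meant that no array could be left out. With normexp, 0 clock genes were 2-fold higher and 0 lower in YAP (2SA) than in YAP (WT), with Usp2 at -0.99, and 1, Nr1d1, was higher in YAP (2SA) than in YAP (1SA); the limb contrast was 0.65 and 0.61. The stricter filter kept 5 members, without Arntl, Clock, Per2 and Per3, so that 0 were higher in YAP (2SA) than in YAP (WT) and 1 higher than in YAP (1SA), and no limb contrast could be computed. At 3-fold, 0 members were higher or lower in either YAP (2SA) comparison. The shares of all genes called under these settings are not given, so these counts are not read as particular to the clock genes. Leaving out 1 member at a time, the limb contrast ran from 0.48 to 1.51 in YAP (2SA) against YAP (WT) and from 0.47 to 1.71 against YAP (1SA), lowest without Arntl and highest without Clock. Dbp was -0.29 in YAP (2SA) against YAP (WT) with normexp and -0.42 with the mean of its probes, against -0.54. The median of the other clock genes in that comparison was -0.04 with normexp, -0.02 with the stricter filter and -0.01 with the mean of all probes, against -0.15. The cause of these shifts was not tested, beyond the members that each setting leaves out. The array median, the series matrix, no filter and all spots kept left every described value within the spread between spots, or its count within 1.5 times. Much of this was fixed in advance. The series matrix differs by 1 constant per array, which the scaling removes, and the array median cannot move the limb contrast. No filter and all spots kept gave every measured member the same value as reported. No member changed direction between settings in YAP (2SA) against YAP (WT) or YAP (1SA). Signal over background limits Npas2, and the dim probes of Arntl, Cry1 and Per3 had wide spot limits.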

Other observations

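Csnk1d and Csnk1e, kinases that phosphorylate PER proteins, differed by -0.03 and 0.14 on the log2 scale in YAP (2SA) against YAP (WT) by their brighter probes. The other Csnk1d probe was 0.26 in YAP (2SA) against YAP (WT), just past its limit of 0.25. Rora, a nuclear receptor gene whose product activates Arntl, was 0.04 in the same comparison, and Cipc, an inhibitor of CLOCK, was -0.34 by its brighter probe.

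Among other rhythmic liver genes, Alas1, the rate-limiting enzyme of haem synthesis, was at 358.2, 386.5 and 206.8 on YAP (WT), YAP (1SA) and YAP (2SA). Por, the electron donor of cytochrome P450 enzymes, was at 100.1, 70.8 and 53.7, lower in both mutants. Nampt, the rate-limiting enzyme of NAD salvage, was at 5.86, 5.82 and 6.19, a range narrower than the differences above. Elovl3, a fatty acid elongase gene, was at 1.64, 1.53 and 2.39 and shared with Nr1d1 its highest level on YAP (2SA).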
